A study of Mus musculus with 333 samples.

Results

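The cells described here are the mouse astrocytes of the P12 thalamus and of the E18.5 cells titled mThal, 33 of the 333 single cells of the series. Members were chosen by label: 16 cells of the P12 thalamus set and 17 cells whose titles start with E18.5mThal carry the cell type label Astrocyte. They are 33 of the 85 cells so labelled, 16 of 21 cells in the P12 thalamus set and 17 of 51 in the E18.5 mThal set. P12 is postnatal day 12 and E18.5 embryonic day 18.5, just before birth. All cells came from wildtype mice with no other allele or agent in the labels. The tissue field of the E18.5 mThal cells reads visual cortex, so their region rests on the title alone. Each stage drew on 5 mice, per the design text, but which cell came from which mouse is not in the labels.

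Cells were sorted, each was captured in a microfluidic chamber, and its polyA RNA was copied in full length, amplified and sequenced. The sort gate was not given in the sources used here. No molecular identifiers were used, so reads are not molecules. Because animals cannot be separated, each arm is 1 sample. No test was possible, and every difference below compares these cells and not the stages. The 2 arms also carry separate runs of cell IDs, and age, region and run cannot be told apart. Levels are in CPM: for each arm the reads of a gene were added up and scaled to a common total, as they were for each cell. Log2 ratios are P12 over E18.5 with 1 CPM added to each arm, and intervals are exact 95% Poisson intervals that cover counting error only. CPM depends on transcript length, so levels are compared between cells and arms, never between genes. Numbers of cells with a read are after thinning each cell to 700000 reads. A gene was measured if it reached 10 CPM in either arm, and it is called higher or lower from a 2-fold difference. "At least" marks a fold against an arm with no read, set to 3 reads over that arm.

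Astrocytes are the star-shaped glial cells that clear glutamate, GABA and potassium from around synapses, feed neurons, contact blood vessels and secrete proteins that shape synapses. They arise from radial glia late in embryonic life, after most neurons. They multiply around birth and take on their adult channels, transporters and gap junctions over the first postnatal weeks, when synapses form. Thalamic astrocytes lie among the relay neurons that carry sensory signals to the cortex.

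The P12 arm held 18622979 reads, with 752075 to 1728561 per cell and a median of 2986.5 genes detected. The E18.5 arm held 27127987 reads, with 799620 to 2875619 per cell and a median of 3281 genes. A gene with no read is thereby limited to 0.161 CPM in the P12 arm and 0.111 CPM in the E18.5 arm (3 reads). Pairs of P12 cells correlated at a median Pearson r of 0.281 over 8172 genes, E18.5 pairs at 0.198 and pairs across the arms at 0.204, given as a description. The E18.5 cells were thus less alike among themselves than the P12 cells.

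The labels were checked against marker genes before any comparison. The summed level of 15 astrocyte markers ran from 15972 to 66449 CPM in the P12 cells (median 47131) and from 742 to 37226 CPM in the E18.5 cells (median 16325). In 13 of 16 P12 cells the sum lay above the highest E18.5 cell. P12 cells 17 (15972 CPM) and 5 (23236 CPM) were the lowest of their arm. No P12 cell carried 25% or more of the marker level typical of neurons, microglia, endothelial cells or the oligodendrocyte lineage. Ependymal and mural markers were only compared with the astrocyte sum of the cell. P12 cell 5 had ependymal and choroid plexus markers at 1584 CPM and cell 20 mural and fibroblast markers at 1293 CPM. The median Pearson r of P12 cells 17 and 5 was higher with E18.5 cells (0.247 and 0.171) than with P12 cells (0.223 and 0.164).

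Several E18.5 cells went against their label. E18.5 cell 8 held 82779 CPM of Ttr, the transthyretin of choroid plexus, with an astrocyte sum of 2615 CPM and no read of the glutamate transporter Slc1a3. Cell 35 had endothelial markers at 15222 CPM and mural and fibroblast markers at 17712 CPM, above its astrocyte sum of 14002 CPM, and cell 47 had myelin markers at 50649 CPM. Cells 5, 31 and 48 carried neuron markers at 3164, 3205 and 1957 CPM, where the median of cells labelled Neurons was 6896 CPM. Cell 14 had markers of newly formed oligodendrocytes at 5679 CPM. Cells 19, 31 and 50 had astrocyte sums of 742, 4726 and 10279 CPM, under 25% of the median of all 85 astrocytes (43975 CPM). Leaving out these 9 cells keeps E18.5 cells 2, 9, 17, 21, 28, 29, 37 and 44, called here the 8 cells within the marker limits. This stricter set was drawn up after the data had been seen, and many results are given with it as well. No doublet caller was run.

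**Figure D1:**
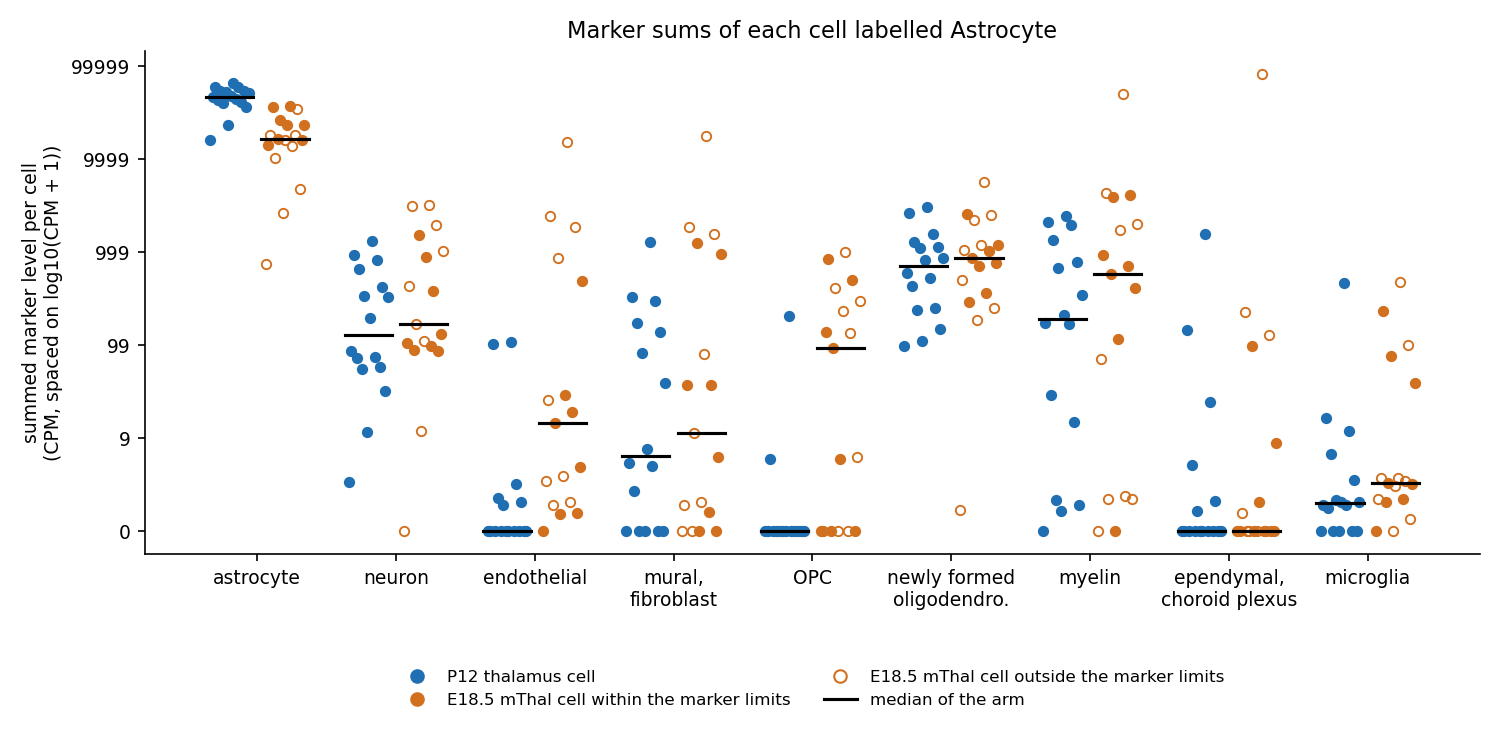
Summed level of each marker list in every cell (CPM, on a log10 scale of CPM plus 1), with P12 thalamus cells in blue and E18.5 mThal cells in orange. Open circles are the 9 E18.5 cells outside the marker limits and bars are medians of the arm; the P12 astrocyte sums lie between 15972 and 66449 CPM and the E18.5 sums between 742 and 37226 CPM.

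Genes of other cell types therefore need care in what follows. Of 9 measured neuron markers, 8 were lower in P12 and 0 higher. Their summed level ran from 2.39 through a median of 141 to 1322 CPM per P12 cell. Per E18.5 cell it ran from 0 through 166 to 3205 CPM, and 4 E18.5 cells lay above every P12 cell. The median of the 8 cells within the marker limits was 118 CPM, so the medians per cell were much alike. Of 9 measured myelin markers, 7 were lower and 1 higher (sums 0 to 2466 against 0 to 50649 CPM). The 4 measured mural and fibroblast and 3 measured endothelial markers were all lower, with endothelial sums up to 107 CPM in P12 and 15222 CPM in E18.5. Some defining genes were without a read in both arms, namely Cldn5 of endothelium, Mog of myelin, Cspg4 of oligodendrocyte precursors and Slc17a6 of thalamic relay neurons. The microglial Csf1r was at 0 and 0.221 CPM. Haemoglobin genes, products of red blood cells, had no read in P12 cells, while Hbb-bs (112 CPM, log2 ratio -6.81, -6.18 without E18.5 cell 35) was read in 12 and Hba-a1 (81.2 CPM) in 13 of 17 E18.5 cells. Near-identical haemoglobin copies share reads, so the split between them is uncertain. The part of these other cells in the differences below was not tested beyond the values given with the 8 cells within the marker limits.

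Of 9003 measured genes, 2795 (31%) were at least 2-fold higher in P12 and 3318 (36.9%) at least 2-fold lower, and the median log2 ratio was -0.19. With the 8 cells within the marker limits, 3360 of 8431 genes (39.9%) were higher and 2648 (31.4%) lower, with a median of 0.24. No gene separated all 16 P12 cells from all 17 E18.5 cells (0%). Each list below is to be read against these shares. Several lists share genes, such as Aqp4, Kcnj10, Dio2 and Sparcl1, so they are not separate results. TMM and median-of-ratios scaling moved all log2 ratios by 0.11 and 0.14.

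Gja1, Robo1 and Hnrnpa1 were among the genes whose cells overlapped least between the arms. Gja1 encodes connexin 43, the main gap junction protein that couples astrocytes to each other. Its level per P12 cell ran from 1375 through a median of 7679 to 17760 CPM, and per E18.5 cell from 0 through 413 to 5911.5 CPM. All but P12 cell 17 lay above every E18.5 cell, so the arms overlapped by that cell alone. The summed level was 8914 CPM (interval 8871 to 8957) against 1729 CPM (1714 to 1745), 5.15-fold higher in P12, and the log2 ratio of 2.37 stayed between 2.23 and 2.61 whichever cell was left out. It was 1.79 with the 8 cells within the marker limits.

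Robo1, the receptor for the Slit guidance cues, went the other way. P12 cells ran from 0 to 1.69 CPM with a median of 0, and E18.5 cells from 0 through 6.94 to 1004 CPM. Of the 17 E18.5 cells, 11 lay above every P12 cell. The summed level was 0.268 CPM (0.0872 to 0.627) against 121 CPM (117 to 126), a log2 ratio of -6.59 with a range of -6.75 to -6.15. Among the 8 cells within the marker limits every one was above every P12 cell (2.71 to 1004 CPM). Hnrnpa1, a splicing factor abundant in dividing cells, was between 0 and 67.9 CPM in P12 cells (median 3.09) and between 0 and 1222 CPM in E18.5 cells (median 330). In 13 of the 17 E18.5 cells it exceeded the highest P12 cell. Its summed level was 14.7 against 442 CPM, 30.2-fold lower in P12 (log2 ratio -4.82, range -5.19 to -4.65, and -4.92 within the marker limits). Hnrnpa1 has processed copies in the genome, so reads shared with them make its level uncertain.

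The 250 bases before the start of these 3 genes are shown because the genes marked the arms most clearly, a choice made after the values were seen. They come from RefSeq on GRCm38.p6, all on the plus strand, 5′ to 3′, and capitals mark TGAGTCA or its reverse complement TGACTCA, the AP-1 motif, searched on both strands.
Gja1, chr10:56377050-56377299: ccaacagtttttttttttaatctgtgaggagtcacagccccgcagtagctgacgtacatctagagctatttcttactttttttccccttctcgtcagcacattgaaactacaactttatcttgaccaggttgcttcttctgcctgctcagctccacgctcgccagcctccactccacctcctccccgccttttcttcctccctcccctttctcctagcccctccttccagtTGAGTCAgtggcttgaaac
Robo1, chr16:72662899-72663148: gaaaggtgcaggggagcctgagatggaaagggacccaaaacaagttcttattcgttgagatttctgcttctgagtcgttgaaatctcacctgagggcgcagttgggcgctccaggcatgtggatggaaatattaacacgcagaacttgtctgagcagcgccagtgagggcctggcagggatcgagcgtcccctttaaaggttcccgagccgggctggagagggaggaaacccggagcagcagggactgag
Hnrnpa1, chr15:103240147-103240396: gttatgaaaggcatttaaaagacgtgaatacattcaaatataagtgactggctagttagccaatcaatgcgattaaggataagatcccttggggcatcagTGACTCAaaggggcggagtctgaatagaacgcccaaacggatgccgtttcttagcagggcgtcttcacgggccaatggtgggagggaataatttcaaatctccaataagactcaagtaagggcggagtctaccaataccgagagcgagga
The Gja1 window held 1 such motif, beginning 19 bases before the start, and the Hnrnpa1 window 1, beginning 150 bases before it. The Robo1 window held none. Over all genes the motif was in 4.46% of 32851 windows. TTGGCA, one arm of the palindrome bound by nuclear factor I proteins, was in none of the 3 windows and in 12.3% of all windows (either strand). It was in 0 of 22 windows of the astrocyte maturation genes found in the table (19 of 25 genes) and in 2 of 29 windows of the axon guidance genes (24 of 30 genes). For the 15 genes per direction named by the rule given below, it was in 3 of 25 windows (12%, higher in P12) and 3 of 18 (16.7%, lower in P12). TGAGTCA was in 0 of 22, 0 of 29, 1 of 25 and 1 of 18 windows of these sets, in the same order. These are letter matches, with no reading of binding.

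Genes listed for mature astrocytes were more often higher than lower in P12. The lists were chosen with earlier results of these data known. Of 25 genes listed for astrocyte maturation, 24 were measured, 17 were higher, 0 were lower, and the median log2 ratio was 1.64 (0.99 within the marker limits, where 12 were higher and 0 lower). The summed level of the list lay between 6590 and 79502 CPM in P12 cells and between 437 and 56612 CPM in E18.5 cells, with 11 of 16 P12 cells above every E18.5 cell. Of the 15 astrocyte markers 8 were higher and 0 lower (median 1.27, 2.23 without E18.5 cell 35, 1.77 within the marker limits). The list was thus not higher as a block. Slc1a3, the GLAST glutamate transporter of radial glia and astrocytes, was alike in both arms at 6450 against 6317 CPM (log2 ratio 0.03). It ran from 546 through 4386 to 20118 CPM in P12 cells and from 0 through 5947 to 27490 CPM in E18.5 cells, and the arms overlapped throughout. Sox9, the factor that specifies glia, was likewise within 2-fold (959 against 727 CPM, log2 ratio 0.40), as were Aldoc (0.84) and Aldh1l1 (0.89), enzymes used to mark astrocytes.

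**Figure D2:**
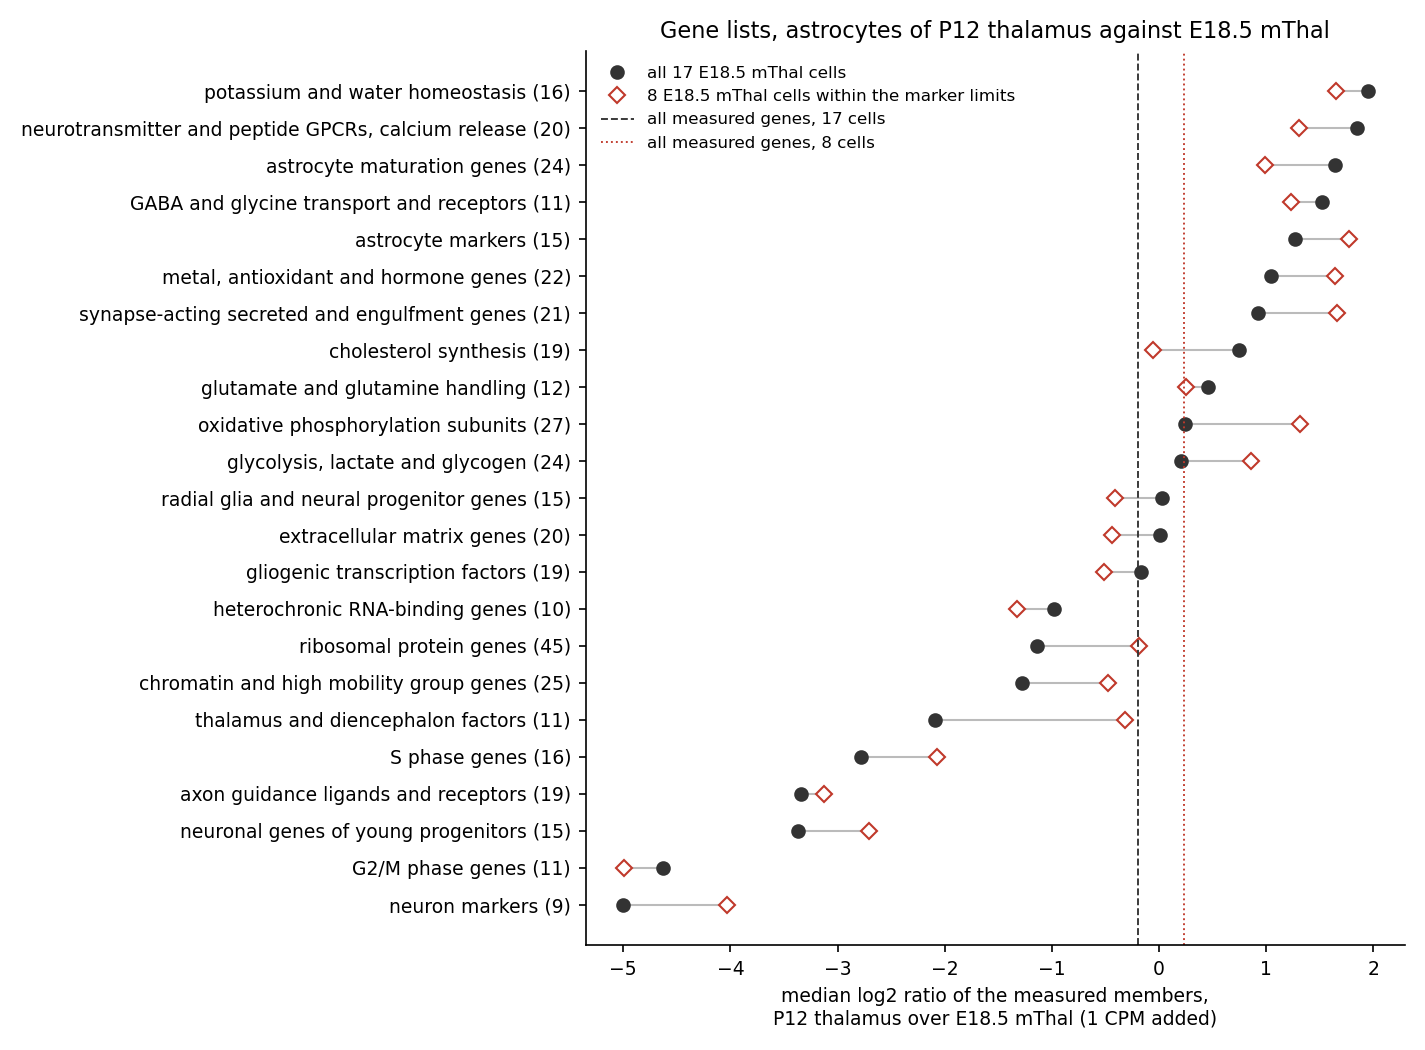
Median log2 ratio of the measured members of each gene list (members measured in brackets), P12 thalamus over E18.5 mThal, with all 17 E18.5 cells (filled circles) and with the 8 within the marker limits (open diamonds). Vertical lines give the median of all measured genes, -0.19 and 0.24; potassium and water genes lie at 1.95 and 1.65 and axon guidance genes at -3.34 and -3.13.

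Potassium and water handling genes were mostly higher in P12. Of 16 measured genes 13 were higher and 2 lower, with a median of 1.95 (1.65 within the marker limits, 2.53 without E18.5 cell 37). Summed levels ran from 2100 to 32028 CPM in P12 cells and from 321 to 14482 CPM in E18.5 cells, and 11 P12 cells lay above every E18.5 cell. Atp1b2, the beta subunit of the sodium pump in astrocytes, was between 123 and 7969 CPM in P12 cells (median 5378) and between 0 and 3047 CPM in E18.5 cells (median 246). In 12 P12 cells it exceeded every E18.5 cell, and the summed level was 4700 against 772 CPM, 6.09-fold higher (log2 ratio 2.60, and 1.83 within the marker limits). Aqp4, the water channel of the endfeet that ring blood vessels, was read in all 16 P12 cells at 286 to 24589 CPM, and in E18.5 cells at 0 to 10102 CPM with a median of 0.621 CPM. E18.5 cells 44 (10102 CPM), 17 (5137 CPM) and 9 (1951 CPM) carried nearly all of its E18.5 reads. The log2 ratio of Aqp4 was 2.98, rising to 4.43 without cell 44. Cells 44, 17 and 9 all lie within the marker limits, so the difference in Aqp4 was smaller there. Dag1, the dystroglycan that anchors endfeet, was 4.68-fold higher (202 against 43.2 CPM, log2 ratio 2.20). Kcnj10, the Kir4.1 potassium channel, had a log2 ratio of 1.69 (2.59 without E18.5 cell 37, 0.60 within the marker limits), and Mlc1, a membrane protein of endfeet, one of 2.27 (3.74 without E18.5 cell 5). The sodium bicarbonate cotransporter Slc4a4 was 5.00-fold higher (2511 against 502 CPM, 1.77 on the log2 scale within the marker limits).

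**Figure D3:**
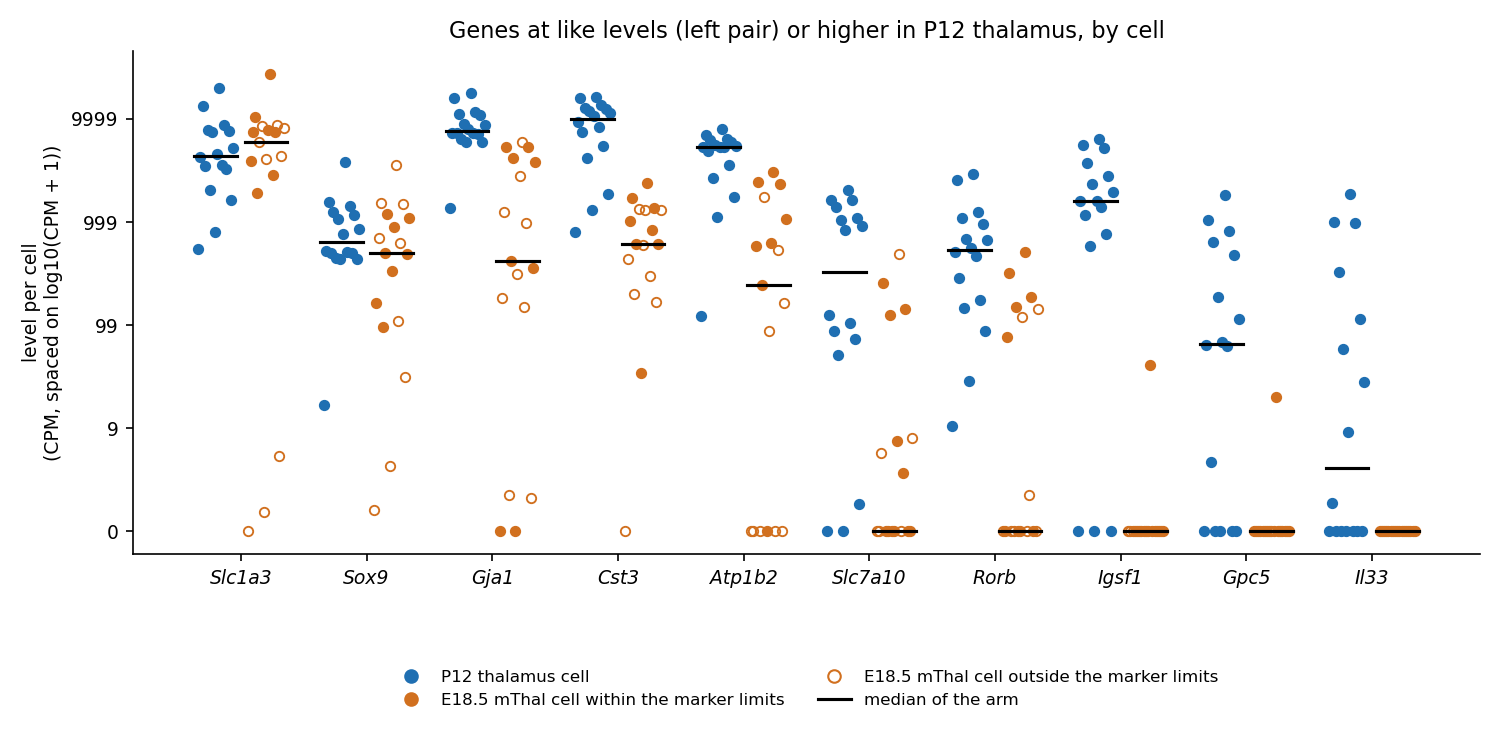
Level per cell (CPM, on a log10 scale of CPM plus 1) of Slc1a3 and Sox9, which were within 2-fold, and of 8 genes higher in P12 thalamus; blue points are P12 cells, orange points E18.5 cells, open circles those outside the marker limits, and bars medians of the arm. For Gja1 15 of 16 P12 cells and for Igsf1 13 of 16 lie above every E18.5 cell.

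Transmitter clearance differed by transmitter. Of 11 GABA and glycine genes 8 were higher and 0 lower (median 1.53, 2.26 without E18.5 cell 44; within the marker limits 6 higher and 2 lower, median 1.23). The astrocyte GABA transporter Slc6a11 (GAT-3) was within 2-fold at 1564 against 940 CPM (log2 ratio 0.73, and 0.03 within the marker limits). Aldh5a1, which completes GABA breakdown, was 25.8-fold higher (269 against 10.4 CPM, log2 ratio 4.56, 6.74 without E18.5 cell 2). Its partner Abat had a log2 ratio of 1.04, 1.73 without E18.5 cell 21, and -0.02 within the marker limits.

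Glutamate handling was mixed, with 4 of 12 genes higher, 3 lower and a median of 0.46 (0.25 within the marker limits). The transporter Slc1a2 (GLT-1) was 2.41-fold higher (5226 against 2169 CPM, log2 ratio 1.27, 0.75 within the marker limits). Only 2 P12 cells exceeded the highest E18.5 cell. Slc7a10, the Asc-1 exchanger of D-serine and glycine, ran from 0 through 481 to 2062 CPM in P12 cells and from 0 to 492 CPM in E18.5 cells with a median of 0. Its sum was 13.2-fold higher (663 against 50.3 CPM, log2 ratio 3.69, 3.24 within the marker limits). The synthetic enzyme Glul was within 2-fold (930 against 590 CPM, log2 ratio 0.66). The 2 metabotropic glutamate receptors of astrocytes went apart. Grm3 was lower in P12 (629 against 1524 CPM, log2 ratio -1.27, -1.30 within the marker limits). Grm5 was higher (544 against 126 CPM, log2 ratio 2.10) but only 7 of 16 and 5 of 17 cells had a read, and it stood at 1.17 without P12 cell 11 and 3.43 without E18.5 cell 9.

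Of 20 measured genes for transmitter and peptide G protein-coupled receptors and calcium release, 13 were higher and 3 lower (median 1.85; 11 of 18 and 2 lower, median 1.31, within the marker limits). Ednrb, the endothelin B receptor, ran from 313 through 10620 to 23108 CPM in P12 cells and from 0 through 2726 to 9954 CPM in E18.5 cells. It was 2.62-fold higher (8832 against 3367 CPM, log2 ratio 1.39), but 0.54 within the marker limits. The alpha-2A adrenergic receptor Adra2a was at 93.8 against 0.295 CPM and was read in 6 P12 cells and 1 E18.5 cell (log2 ratio 6.19, range 5.82 to 6.57). The sphingosine phosphate receptor S1pr1 was 3.49-fold higher (1324 against 379 CPM, log2 ratio 1.80). Gpr37l1, an orphan receptor of glia, was read in 14 of 16 P12 cells and 2 of 17 E18.5 cells. Its log2 ratio was 4.95 (907 against 28.4 CPM), and 9.77 without E18.5 cell 47. The neurotensin receptor Ntsr2 (565 against 51.5 CPM, log2 ratio 3.43, 8.98 without E18.5 cell 21) and the calcium-binding S100b (326 against 17.6 CPM, log2 ratio 4.14, 3.34 without P12 cell 19, 8.35 without E18.5 cell 9) likewise drew nearly all of their E18.5 reads from 1 cell each.

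Secreted proteins and genes of synapse engulfment were higher for 10 of 21 measured members and lower for 5 (median 0.92; 10 of 20 and 2 lower, median 1.66, within the marker limits). Sparcl1 (hevin), which promotes synapse formation, was 2.08-fold higher (10854 against 5214 CPM, log2 ratio 1.06, 0.36 within the marker limits). Sparc, which opposes hevin, was 2.11-fold higher (2462 against 1169 CPM, log2 ratio 1.07, 0.78 within the marker limits). Cst3, the secreted protease inhibitor cystatin C, ran from 796 through 10001 to 16336 CPM in P12 cells and from 0 through 615 to 2375 CPM in E18.5 cells. In 13 P12 cells it exceeded every E18.5 cell, and the sum was 9.33-fold higher (8704 against 933 CPM, log2 ratio 3.22, 2.90 within the marker limits). Clu, the secreted chaperone clusterin, was 3.53-fold higher (8352 against 2368 CPM, log2 ratio 1.82), and Apoe, the lipid carrier, 2.96-fold (7385 against 2497 CPM, log2 ratio 1.56, 1.26 within the marker limits).

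The alarmin Il33, which directs microglia to engulf synapses, was read in 9 P12 cells at up to 1882 CPM and in no E18.5 cell. Its sum was 299 CPM against none, at least 2706-fold higher. The glypican Gpc5 was read in 11 P12 cells at up to 1819 CPM and in 1 E18.5 cell at 19.3 CPM (355 against 1.29 CPM, log2 ratio 7.28; 6.67 without P12 cell 11, 8.47 without E18.5 cell 44). The engulfment receptors Megf10, Mertk and Axl were higher at 169 against 13.5, 96.4 against 10.5 and 114 against 9.07 CPM. Each was read in 8 or fewer cells of either arm. Without P12 cell 18, 19 and 10 their log2 ratios of 3.55, 3.09 and 3.51 were 2.87, 2.05 and 2.90, and without E18.5 cells 28 and 31 those of Megf10 and Axl were 5.02 and 5.06.

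Genes for metals, oxidative defence and hormones were higher for 11 of 22 and lower for 4 (median 1.05; 15 of 21 and 2 lower, median 1.64, within the marker limits). Prdx6, a peroxidase of astrocytes, ran from 362 through 1841 to 4018 CPM in P12 cells and from 0 through 16.1 to 1240 CPM in E18.5 cells. In 11 P12 cells it was above every E18.5 cell (2212 against 129 CPM, 17.2-fold, log2 ratio 4.09, 4.03 within the marker limits). The metallothioneins Mt1 (921 against 222 CPM, log2 ratio 2.04) and Mt3 (329 against 130 CPM, log2 ratio 1.34) were higher. The zinc transporter Slc39a12 had a log2 ratio of 3.90 (948 against 62.7 CPM, 5.41 without E18.5 cell 28). Glutathione transferases split, with Gstm5 at 368 against 172 CPM (log2 ratio 1.09) and Gstm1 at 357 against 1293 CPM (log2 ratio -1.85). Dio2, which makes active thyroid hormone from its precursor, was at 531 against 1.07 CPM, read in 8 P12 cells and 2 E18.5 cells (log2 ratio 8.01, 8.95 without E18.5 cell 31). The thyroid hormone receptor Thrb was at 170 against 1.88 CPM, also in 8 and 2 cells (log2 ratio 5.89; 4.51 without P12 cell 10, 7.11 without E18.5 cell 19).

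Energy metabolism was mixed. Of 24 measured genes of glycolysis, lactate and glycogen 9 were higher and 5 lower (median 0.20, 0.86 within the marker limits), and of 24 lipid genes 9 were higher and 4 lower (median 0.15, 0.31). Cholesterol synthesis had 5 of 19 higher and 3 lower (median 0.75, -0.05). Oxidative phosphorylation subunits had 5 of 27 higher and 1 lower at a median of 0.24, which was 0.94 without E18.5 cell 8 and 1.31 within the marker limits, where 18 were higher. Among single genes the acyl-CoA synthetase Acsbg1 was 9.54-fold higher (1290 against 135 CPM, log2 ratio 3.24, 2.59 without P12 cell 19). The related Acsl6 was 11.3-fold higher (535 against 47.2 CPM, log2 ratio 3.48, 4.81 without E18.5 cell 28). The lactate transporter Slc16a1 had a log2 ratio of 4.93 (498 against 15.3 CPM) that ran from 4.18 without P12 cell 18 to 8.71 without E18.5 cell 17.

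Cues and receptors that steer growing axons were among the lists lowest in P12. Of 30 axon guidance genes 19 were measured, 15 were lower and 0 higher, with a median of -3.34 (11 of 14 lower and 1 higher, -3.13, within the marker limits). The median was -4.39 without P12 cell 5 or 17, -4.35 without P12 cell 21, -3.93 without E18.5 cell 28 and -3.94 without E18.5 cell 31. Summed levels lay between 39.02 and 1307 CPM in P12 cells and between 44.1 and 8280 CPM in E18.5 cells, and 12 of 17 E18.5 cells lay above every P12 cell. Besides Robo1 the transmembrane semaphorin Sema6a ran from 0 through 20.1 to 381 CPM in P12 cells and from 0 through 420 to 6329 CPM in E18.5 cells. It was 10.2-fold lower (76.2 against 781 CPM, log2 ratio -3.34, -3.22 within the marker limits), with 9 E18.5 cells above every P12 cell.

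The receptors Ephb1 and Robo2 had no read in P12 cells and were read in 6 and 4 E18.5 cells. Ephb1 was at 102 CPM in E18.5, at least 634-fold lower in P12 (log2 ratio -6.69, -5.65 without E18.5 cell 37), and Robo2 at 19.9 CPM, at least 124-fold lower. The netrin receptor Unc5c was at 3.54 against 151 CPM (log2 ratio -5.07; -7.25 without P12 cell 14, -3.94 without E18.5 cell 29). Its ligand Ntn1 was at 19.5 against 74.1 CPM (log2 ratio -1.87; -4.60 without P12 cell 5, -1.34 without E18.5 cell 31). The repellent Sema3a had 1 read in P12 and 202 CPM in E18.5, of which E18.5 cell 35, the cell with vascular markers, held 3116 CPM. Within the marker limits its log2 ratio was 0.08.

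**Figure D4:**
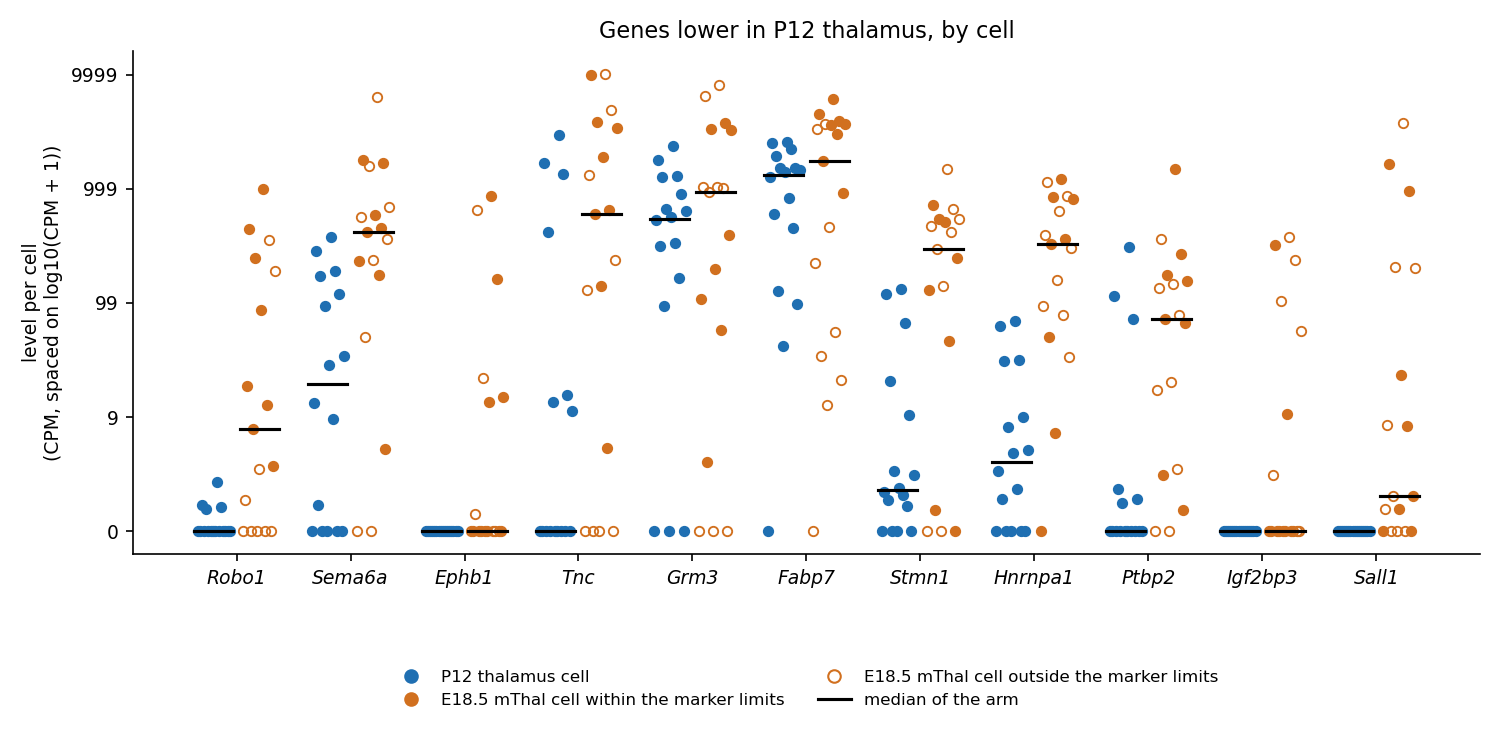
Level per cell (CPM, on a log10 scale of CPM plus 1) of 11 genes lower in P12 thalamus; symbols as in the plot of higher genes. Hnrnpa1 exceeds the highest P12 cell in 13 and Robo1 in 11 of the 17 E18.5 cells, whereas Grm3 and Fabp7 overlap over most of their range.

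Neuronal genes that young progenitors and immature glia also use were lower for 10 of 15 measured members and higher for 3 (median -3.37; 7 of 12 and 2 higher, -2.71, within the marker limits). Neuron markers were lower too, as given above, but Stmn2, Dcx and Gap43 belong to both lists. The part of cells with neuron markers in this list was not tested beyond the marker limits. Stmn1, a regulator of microtubules in growing cells, was between 0 and 132 CPM in P12 cells (median 1.30) and between 0 and 1488 CPM in E18.5 cells (median 294). In 11 E18.5 cells it exceeded every P12 cell (24.4 against 355 CPM, 14.5-fold lower, log2 ratio -3.81, -3.51 within the marker limits). Dcx, the doublecortin of migrating neurons, was at 0.913 against 172 CPM. E18.5 cells 5 (1172 CPM), 19 (765 CPM) and 29 (367 CPM) held most of it, and its log2 ratio of -6.50 was -5.34 without cell 5. In the opposite direction the tubulin Tubb2a was 3.05-fold higher in P12 (528 against 173 CPM, log2 ratio 1.60).

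RNA-binding genes known for stage-dependent levels had 5 of 10 measured members lower and 0 higher (median -0.98; 5 lower and 1 higher, -1.33, within the marker limits). After Hnrnpa1, the neural splicing repressor Ptbp2 was at 25.4 against 183 CPM, read in 4 of 16 and 15 of 17 cells (log2 ratio -2.80; -3.98 without P12 cell 9, -1.76 without E18.5 cell 21). Igf2bp3, a fetal mRNA-binding protein, had no read in P12 and 47.2 CPM in E18.5, read in 7 cells, at least 293-fold lower. Qk, the quaking protein of glia, was alike at 4895 against 4612 CPM (log2 ratio 0.09).

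Chromatin and high mobility group genes had 14 of 25 members lower and 2 higher (median -1.28; 9 of 23 lower and 6 higher, -0.48, within the marker limits). Hmgb2 was at 2.95 against 75.2 CPM (log2 ratio -4.27, -5.04 without P12 cell 5, -3.69 without E18.5 cell 9) and Hmgb1 at 366 against 888 CPM (log2 ratio -1.28, -0.43 within the marker limits). Both bend DNA and are abundant in fetal cells. Hmgn2 was at 81.5 against 391 CPM (log2 ratio -2.25, -1.57 without E18.5 cell 19) and the histone methyltransferase Ezh2 at 29.9 against 105 CPM (log2 ratio -1.78; -2.54 without P12 cell 21, -1.15 without E18.5 cell 14). Ribosomal protein genes were lower for 23 of 45 and higher for 0 (median -1.14), but within the marker limits for 8, with 3 higher and a median of -0.19.

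Cell cycle genes were read in few cells. Of 30 genes of G2 and M phase 11 were measured, 9 were lower and 2 higher (median -4.63, -4.99 within the marker limits). Of 16 measured S phase genes 9 were lower and 5 higher (median -2.78, -2.18 without E18.5 cell 21, -2.07 within the marker limits). Mki67, the Ki-67 antigen of cycling cells, had 1 read in P12. In E18.5 it was at 25.1 CPM, and cell 50, with 747 CPM, held nearly all of it. Ccnb1 (92.7 CPM against none) rested on E18.5 cell 5 and the replication helicase Mcm5 (192 CPM against none, log2 ratio -7.59, -3.70 without it) on E18.5 cell 29. Without cell 5 the log2 ratio of Ccnb1 was -0.06. Top2a, the mitotic topoisomerase, was read in 4 E18.5 cells at 13.7 CPM and had no read in P12, at least 84.9-fold lower (log2 ratio -3.88, -3.10 without E18.5 cell 50). Genes that inhibit the cycle were lower for 6 of 10 and higher for 2 at a median of -1.82, which was -0.97 without E18.5 cell 8 and 0.10 within the marker limits.

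Radial glia and progenitor genes had no common direction, with 3 of 15 higher, 5 lower and a median of 0.03 (-0.41 within the marker limits). Fabp7, the fatty acid binding protein of radial glia and young astrocytes, ran from 0 through 1330 to 2550 CPM in P12 cells and from 0 through 1745 to 6064 CPM in E18.5 cells. Its sum was within 2-fold (1272 against 2064 CPM, log2 ratio -0.70) but -1.52 within the marker limits. The phosphatase Ptprz1 was within 2-fold (4848 against 3492 CPM, log2 ratio 0.47). Vim, the intermediate filament of immature glia, was at 307 against 766 CPM (log2 ratio -1.32; -2.19 without P12 cell 5, -0.70 without E18.5 cell 5, -0.42 within the marker limits). Gfap, the filament of mature astrocytes, was at 1637 against 6.01 CPM. P12 cells 18 (14899 CPM), 7 (4143 CPM) and 5 (1853 CPM) held nearly all of it, so its log2 ratio of 7.87 was 5.85 without cell 18, and E18.5 cell 5 held all E18.5 reads (10.68 without it). The N-cadherin gene Cdh2 was higher (476 against 102 CPM, log2 ratio 2.22, 2.81 without E18.5 cell 17).

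Matrix genes had no common direction, with 5 of 20 higher and 8 lower (median 0.01, -0.44 within the marker limits). The embryonic matrix glycoprotein Tnc was 4.24-fold lower (392.3 against 1663 CPM, log2 ratio -2.08, -2.67 without P12 cell 9, -2.50 within the marker limits), read in 7 of 16 and 13 of 17 cells. The chondroitin sulphate proteoglycans Vcan (84.1 against 561 CPM, log2 ratio -2.72, -4.69 without P12 cell 14) and Ncan (2095 against 4688 CPM, log2 ratio -1.16, -2.15 within the marker limits) were lower. Bcan, the proteoglycan of the mature matrix, was 2.21-fold higher (664 against 301 CPM, log2 ratio 1.14, 0.93 within the marker limits).

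Transcription factors of the glial lineage had no common direction, with 5 of 19 measured genes higher, 6 lower and a median of -0.17 (-0.51 within the marker limits). Nfia and Nfib, the nuclear factor I proteins that start gliogenesis, had a read in every cell of both arms. Nfia ran from 490 through 1348 to 2616 CPM in P12 cells and from 117 through 1703 to 5387 CPM in E18.5 cells, and both were within 2-fold (log2 ratios -0.56 and -0.72). The nuclear receptor Rorb was read in all 16 P12 cells at 9.53 to 2895 CPM (median 535) and in 8 E18.5 cells at up to 506 CPM. It was 10.3-fold higher (816 against 79.2 CPM, log2 ratio 3.35, 2.47 within the marker limits). The clock repressor Nr1d1 was at 225 against 1.77 CPM, read in 8 P12 cells and 1 E18.5 cell (log2 ratio 6.35; 5.32 without P12 cell 21, 7.82 without E18.5 cell 2). Sall1, a zinc finger transcription factor, had no read in P12 and 362 CPM in E18.5, read in 10 cells and at least 2250-fold lower. E18.5 cells 14 (3754 CPM), 21 (1665 CPM) and 44 (953 CPM) held most of it, and the log2 ratio of -8.51 was -7.77 without cell 14.

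The regional factors bear on the title of the E18.5 cells. Tcf7l2, the Wnt pathway factor of the thalamus, was read in 16 of 16 P12 and 16 of 17 E18.5 cells at like levels (781 against 721 CPM, log2 ratio 0.11). Of 29 thalamus and diencephalon factors 11 were measured, 8 were lower and 1 higher (median -2.09). The median was -3.40 without P12 cell 6, -1.17 without E18.5 cell 5 and -0.32 within the marker limits. Otx2 (11.5 against 216 CPM, log2 ratio -4.11) and Zic4 (1.56 against 122 CPM, log2 ratio -5.59) rested on cells outside those limits, Otx2 on cell 8 (-1.70 without it) and Zic4 on cell 5 (-2.80 without it). Without P12 cell 18 and 11 they were -5.90 and -6.71, and within the limits -0.08 and 0.64.

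With all 17 E18.5 cells the signalling pathways had no common direction. Of the measured genes of the Notch pathway 2 of 14 were higher and 6 lower (median -0.40), of Wnt 5 of 19 and 7 (-0.73), of Hedgehog 3 of 7 and 2 (0.54, -0.07 without P12 cell 20), of BMP and TGF-beta 6 of 16 and 6 (-0.05) and of FGF 4 of 16 and 7 (-0.36). The BMP and FGF medians turned positive without E18.5 cell 5 (0.77 and 0.38) and within the marker limits (1.21 and 0.35), where 9 BMP and TGF-beta genes were higher and 3 lower. Within the marker limits the Notch, Wnt and Hedgehog medians were -0.36, -0.64 and 0.97. Sfrp1, a secreted Wnt antagonist, had no read in P12 and 132 CPM in E18.5, read in 6 cells, at least 818-fold lower. Id2, a target of BMP signals, was 2.86-fold higher (3133 against 1095 CPM, log2 ratio 1.52, 1.49 within the marker limits). Immediate early genes had 4 of 16 higher and 6 lower (median -0.37), but 5 of 14 higher and 2 lower (median 0.79) within the marker limits.

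A fixed rule named the 15 genes per direction with the largest log2 ratio among those at 50 CPM or more in the higher arm, read in at least 50% of its thinned cells and 30 percentage points more often than in the other arm, and beyond 2-fold whichever cell was left out. Genes of ribosomal proteins and those with Gm, Rik or LOC names were not ranked. Of 9003 measured genes, 2795 were at least 2-fold higher in P12 and 3318 at least 2-fold lower. The rule was met by 166 genes higher in P12 and 72 lower. Igsf1, an immunoglobulin superfamily membrane protein best known from the pituitary, led the higher genes. It was read in 13 of 16 P12 cells at 578 to 6360 CPM and in E18.5 cell 2 alone at 39.7 CPM (2341 against 2.36 CPM, log2 ratio 9.45, 11.19 without cell 2). Cd38, an enzyme that consumes NAD, was read in 8 P12 cells and no E18.5 cell (290 CPM against none, at least 2622-fold; log2 ratio 8.18, 7.02 without P12 cell 9). Lgi1, a secreted ligand at synapses, was read in 10 P12 cells and 1 E18.5 cell (187 against 1.14 CPM, log2 ratio 6.46; 5.80 without P12 cell 9, 7.56 without E18.5 cell 8).

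Further genes of that rule belong to energy supply. Phkg1, a subunit of the kinase that starts glycogen breakdown, was read in 11 P12 cells (75.9 CPM against none, at least 686-fold). Pfkfb3, which drives glycolysis, was read in 9 (81.5 CPM against none, at least 737-fold; log2 ratio 6.37, 5.26 without P12 cell 15). Ogdh, a tricarboxylic acid cycle enzyme, was at 502 against 2.17 CPM (log2 ratio 7.31, 8.46 without E18.5 cell 29). The others were Il33, Dio2, Gpc5 and Nr1d1 (above), the epoxide hydrolase Ephx2 (log2 ratio 7.98), the protease Capn2 (7.23), Syne1 (126.9 CPM against 1 read; 6.95, 5.52 without P12 cell 19), the F-box protein Fbxo8 (6.46, 7.85 without E18.5 cell 37) and the ubiquitin ligase Ube4a (6.20; 5.22 without P12 cell 16, 7.35 without E18.5 cell 48).

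Among the lower genes of the rule, Ptgds and Itm2a had log2 ratios of -10.34 and -8.47 but rested on E18.5 cell 35, which held 106560 and 12264 CPM of them. Without that cell the ratios were -5.56 and -5.35, without P12 cell 9 and 6 they were -11.62 and -9.51, and within the marker limits -0.80 and -4.63. Both are abundant in cells of vessels and meninges. Among the others were Pik3c2b, a lipid kinase (no read against 68.01 CPM in 10 cells, at least 422-fold lower), and FAM60A, a subunit of the Sin3 repressor complex (no read against 160 CPM in 11 cells, at least 993-fold lower). Slc15a2, a peptide transporter of brain, was at 0.376 against 95.5 CPM (log2 ratio -6.13, -5.25 without E18.5 cell 17, -7.15 within the marker limits). Lrrn1, a neuronal leucine-rich repeat protein, was at 0.268 against 429 CPM (log2 ratio -8.40). The remaining ones were Sall1, Robo1 and the haemoglobin genes Hbb-bs and Hba-a1 (above), the haemoglobin gene Hbb-bt (no read in P12; -5.68, -4.79 without E18.5 cell 35, -3.92 within the marker limits), Arl4a (-6.89; -7.48 without P12 cell 20, -5.83 without E18.5 cell 35), Mapk6 (-6.00; -7.42 without P12 cell 20, -3.18 without E18.5 cell 5), the mitochondrial isocitrate dehydrogenase Idh2 (-5.73, -5.07 without E18.5 cell 8) and the chromatin remodeller Ep400 (-5.66, -3.96 without E18.5 cell 28).

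Levels in the other astrocytes of the series are set beside these, with age, region and run again joined. Igsf1 was at 384 CPM in P12 visual cortex (21 cells), 16.9 CPM in P12 hippocampus (19 cells) and 4.07 CPM in adult visual cortex (10 cells), below the 2341 CPM of P12 thalamus. Lgi1 was at 7.51, 15.6 and 3.39 CPM in the same order, against 187 CPM. In that order 5, 4 and 1 cells had a read of Igsf1 and 2, 4 and 1 a read of Lgi1, counted without thinning. Aqp4 was at 2020, 2928 and 1594 CPM against 8079 CPM in P12 thalamus and 1024 CPM in E18.5 mThal. Slc1a2 was ordered otherwise, with 11844, 16034 and 16032 CPM in these 3 sets, above the 5226 CPM of P12 thalamus.

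The genes lower in P12 thalamus did not all share 1 order. Hnrnpa1 was at 341 CPM in P12 visual cortex and 140 CPM in P12 hippocampus, between the 442 CPM of E18.5 mThal and the 14.7 CPM of P12 thalamus, and at 9.49 CPM in the adult. Stmn1 was at 316 and 349 CPM in the 2 other P12 sets, near the 355 CPM of E18.5 mThal, and Sall1 at 147 and 149 CPM where P12 thalamus had no read. Robo1 was at 13.1 CPM in P12 visual cortex, 85.5 CPM in P12 hippocampus and 169 CPM in the adult. These sums came from 2 of 21, 3 of 19 and 4 of 10 cells with a read, counted without thinning. The low summed level of Robo1 in P12 thalamus was thus not seen in the sum of the older set, which rests on few cells. None of these orders has a test, since each set is 1 sample.

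**Figure D5:**
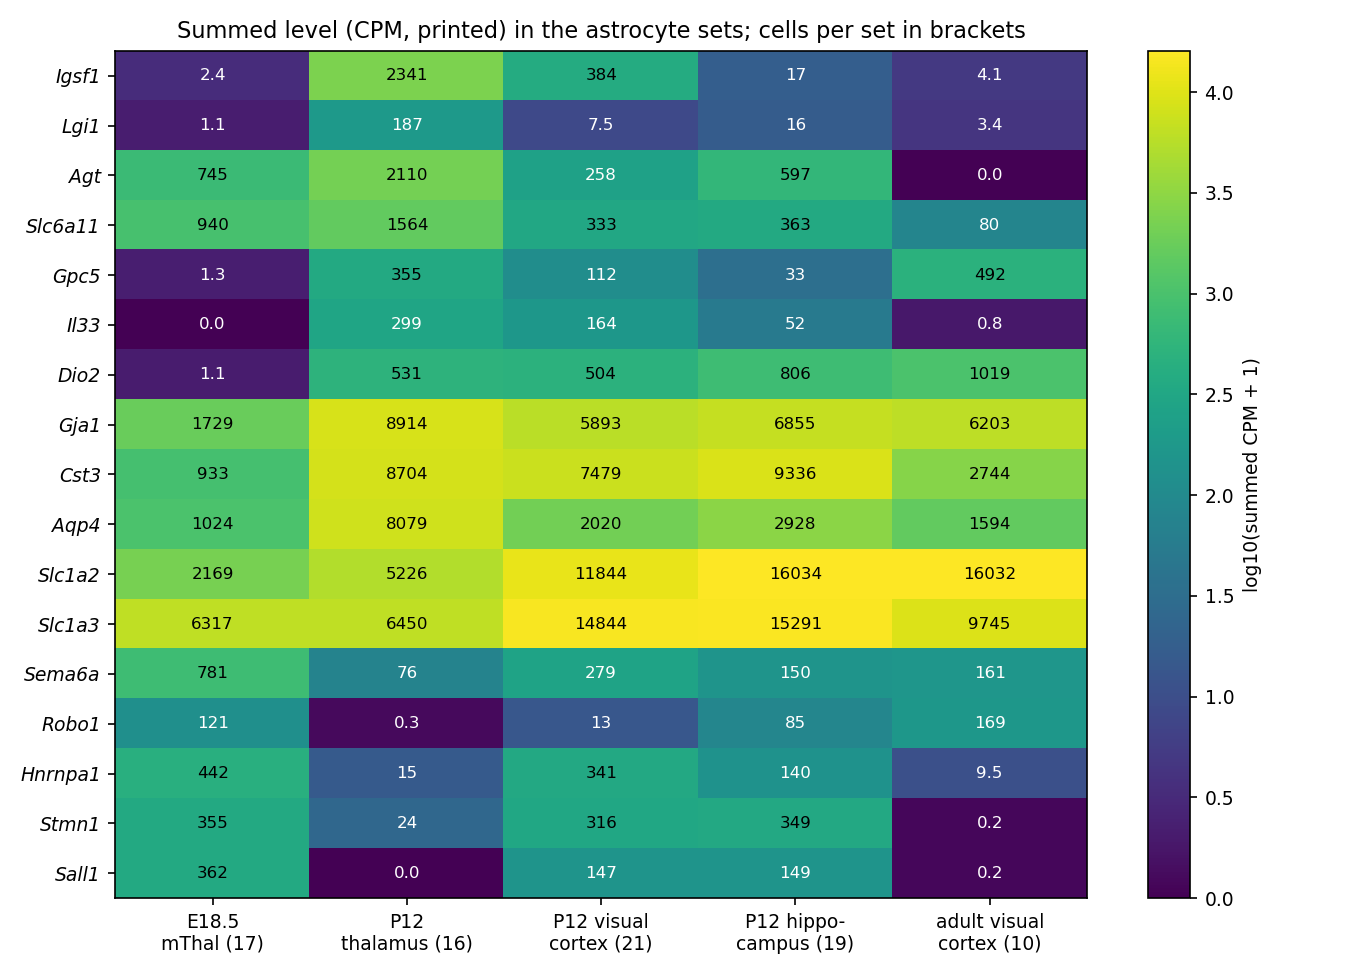
Summed level (CPM, printed in each cell; colour on a log10 scale of CPM plus 1) of 17 genes in 5 sets of cells labelled Astrocyte, with the number of cells in brackets. Igsf1 and Aqp4 are highest in P12 thalamus, Slc1a2 is higher in the other P12 sets and the adult, and Stmn1 is at 24 CPM in P12 thalamus against 316 to 355 CPM in E18.5 mThal and the other P12 sets.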

How the data were processed

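The deposited table held counts of reads per gene for each cell, which the authors made with STAR and HTSeq 0.6.0 on mm10, per the submitters' processing notes; the annotation, strand setting and treatment of reads with several matches were not given in the sources used here. Of 22074 genes, 21274 matched a symbol in the RefSeq table and 800 kept the name in the file. Cells were grouped by title and cell type label, counts were summed per arm and scaled to CPM, and 1 CPM was added before taking log2 ratios. Genes under 10 CPM in both arms were left out. Cells with a read were counted after thinning to 700000 reads. Genes of the 43 lists, and the 15 per direction with the largest ratio at 50 CPM or more, read in at least 50% of the cells of the higher arm and 30 percentage points more often than in the other, and beyond 2-fold whichever cell was left out, were named, with genes of ribosomal proteins and those with Gm, Rik or LOC names not ranked. Members and lists were chosen with earlier results of these data known. No test was made, since each arm is 1 sample. The counting and summing steps were tested on simulated data. TMM factors came from edgeR 4.0.16 in R 4.3.3; the rest used Python 3.11.15 with numpy 2.4.6, pandas 2.3.3, scipy 1.17.1 and matplotlib 3.10.9. Alternatives covered the mean of cells, 5 CPM added, other minimums, both scalings, thinned counts, added E18.5 visual cortex astrocytes, and cells left out singly or by markers. Whether cells are doublets was not tested. Some genes are not reported here.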

Additional observations from a re-analysis of the deposited data

How the results depend on the processing

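With a minimum of 50 CPM, 1626 genes were higher and 1989 lower in P12 thalamus, because fewer genes were measured. Every other setting kept both counts within 1.5 times of 2795 and 3318. Leaving out each cell in turn gave 2658 to 2891 higher and 3209 to 3462 lower. Genes whose cells did not overlap numbered 0 to 1 higher (1 without P12 cell 17) and 0 lower when single cells were left out, and 1 lower with the 8 E18.5 cells within the marker limits. Within those limits the median log2 ratios of ependymal and choroid plexus markers (5.49) and cell cycle inhibitors (0.10) and the ratios of Abat (-0.016), Sema3a (0.075) and Zic4 (0.64), all beyond 2-fold with every cell, changed sign, as did the smaller medians of BMP and TGF-beta (1.21), FGF (0.35), immediate early (0.79), radial glia (-0.41), cholesterol synthesis (-0.05) and matrix genes (-0.44). Zic4 was at 0.57 without the 6 cells that carried another class. The ependymal median ran from -3.60 to 2.27 without single cells (2.27 without E18.5 cell 8). The MHC class I and interferon median of 2.05 ran from -0.24 (without P12 cell 17) to 3.39, and was -0.14 with E18.5 visual cortex astrocytes added. For the other changes of sign the cause was not tested. Of 99 named genes beyond 2-fold, 82 stayed so in the same direction within the marker limits and 93 without the cells that carried another class. TMM and median of ratios kept all 99. Some of these genes were named by a rule that required 2-fold whichever cell was left out, and the lists were chosen with earlier results known. The kept numbers therefore do not measure how well the measured genes at large hold. No paired analysis was possible because the cell numbers of the arms name separate cells and no test was made. Reads limit genes without a read to 0.161 and 0.111 CPM, and 1 sample per arm limits every comparison.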
